A study of Homo sapiens with 8 samples.

Results

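The genes described here are 10 genes known for promoter hypermethylation in colorectal cancer: *MGMT*, *TIMP3*, *RASSF1*, *RASSF2*, *CHFR*, *HLTF*, *BMP3*, *NDRG4*, *TMEFF2* and *SDC2*. They were chosen by name, and every non-control probe that carried one of these names was taken, which gave 13 of 50543 probes. Transcripts were measured with 8 one-color arrays in HCT116, a human colorectal cancer cell line. The control clones CONT1 and CONT2 carried a negative control miRNA plasmid, and the knockdown clones TET1-KD1 and TET1-KD2 each carried a plasmid with a different artificial miRNA against *TET1*, which encodes an enzyme that oxidizes 5-methylcytosine. All 4 were isolated colonies kept under G418, and each was profiled without drug and after 72 h in 1 µM 5-aza-dC, a DNA methyltransferase inhibitor. Each condition therefore held 2 clones (n = 2), and each clone is a single line grown from a colony. A separate treatment field of the labels gives the drug to all knockdown arrays and to no control array. The titles, which name the drug on 4 arrays, were used.

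Cytosines that precede a guanine are the main sites of DNA methylation in human cells, and promoters rich in such CpG sites are usually unmethylated in normal colon. Dense methylation of these promoters in tumors goes together with a silent gene, and 5-aza-dC, which traps DNA methyltransferases as cells divide, can remove the methylation and restore transcription. Methylation of several of these genes is used or studied as a marker of colorectal cancer in stool, blood or tissue, *NDRG4*, *BMP3* and *SDC2* among them.

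RefSeq promoter windows (GRCh38.p14, 250 bases before to 50 bases after a transcription start) were found for 8 of the 10 genes, and for 6 of them a window lay at the gene's own 5′ end. The windows of *CHFR* (chr12:132887569-132887868, minus strand), *TIMP3* (chr22:32801455-32801754, plus strand) and *TMEFF2* (chr2:192194884-192195183, minus strand) are shown because these genes were dim or clone-dependent without the drug. That of *MGMT* (chr10:129466991-129467290, plus strand) is shown because the gene gave signal in every untreated clone. Each is written 5′ to 3′ on the gene's strand, and capitals mark the CG dinucleotides.
CHFR: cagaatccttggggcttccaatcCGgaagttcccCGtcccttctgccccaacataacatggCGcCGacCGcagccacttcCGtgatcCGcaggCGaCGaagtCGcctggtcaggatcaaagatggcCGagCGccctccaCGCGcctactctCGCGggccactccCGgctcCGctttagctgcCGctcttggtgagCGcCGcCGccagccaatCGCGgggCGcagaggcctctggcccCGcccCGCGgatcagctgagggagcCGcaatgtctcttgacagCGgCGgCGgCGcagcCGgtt
TIMP3: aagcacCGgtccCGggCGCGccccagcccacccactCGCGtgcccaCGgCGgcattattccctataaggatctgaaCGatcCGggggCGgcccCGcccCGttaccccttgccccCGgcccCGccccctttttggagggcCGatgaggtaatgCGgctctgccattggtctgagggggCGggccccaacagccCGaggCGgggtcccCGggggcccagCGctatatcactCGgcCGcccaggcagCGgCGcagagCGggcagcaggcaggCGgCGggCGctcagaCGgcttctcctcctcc
TMEFF2: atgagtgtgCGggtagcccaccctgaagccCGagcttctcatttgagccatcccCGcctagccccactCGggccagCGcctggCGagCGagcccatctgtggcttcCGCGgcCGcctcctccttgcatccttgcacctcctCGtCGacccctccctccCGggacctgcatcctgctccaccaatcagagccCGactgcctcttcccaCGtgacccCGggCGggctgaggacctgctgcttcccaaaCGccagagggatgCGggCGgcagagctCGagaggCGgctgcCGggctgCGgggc
MGMT: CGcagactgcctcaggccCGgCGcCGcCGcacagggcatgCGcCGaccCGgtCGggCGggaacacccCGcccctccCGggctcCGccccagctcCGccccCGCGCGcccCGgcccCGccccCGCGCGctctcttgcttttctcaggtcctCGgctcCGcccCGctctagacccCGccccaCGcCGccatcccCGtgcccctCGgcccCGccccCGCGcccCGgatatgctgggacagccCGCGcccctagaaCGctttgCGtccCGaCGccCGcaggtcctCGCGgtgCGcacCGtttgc

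The letters CG, which read the same on both strands, occurred 34 times in the *CHFR* window, 31 times in that of *TIMP3*, 24 times in that of *TMEFF2* and 45 times in that of *MGMT*. Of all 35116 RefSeq windows, 96% held at least 1 CG and the median window held 14 (quartiles 4 and 28). As many CG as in the *MGMT* window were found in 3.48% of them, and the corresponding shares were 15.6% for *CHFR*, 20.7% for *TIMP3* and 33.9% for *TMEFF2*. The window of *HLTF* held 27 CG, a count reached by 28.2% of all windows, and the window at the 5′ end of *NDRG4* held 49, a count reached by 1.6%. The window of *RASSF1* (33 CG) belongs to a transcription start 3386 bases inside the gene. That of *RASSF2* belongs to a transcription start 8461 bases inside the gene and held 7 CG, fewer than the median window. Genes that were bright and genes that were dim in untreated cells thus both had windows with more CG than the median window. Methylation itself was not analysed here.

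**Figure D1:**
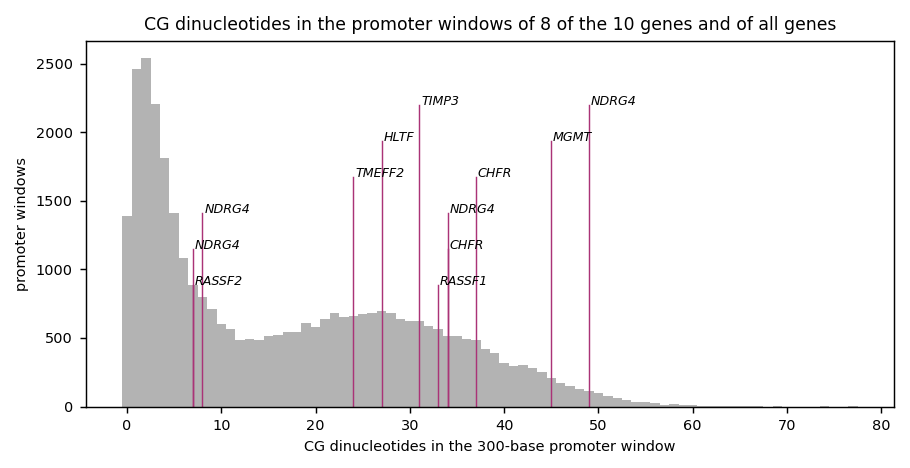
Number of CG dinucleotides per 300-base RefSeq promoter window (x axis) against the number of windows with that count (grey bars, 35116 windows). Lines mark the 12 windows of 8 of the genes; *MGMT* (45) and the 5′ window of *NDRG4* (49) lie far to the right, and *RASSF2* (7) lies left of the median of 14.

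Signals are given as the log2 of the array's background-subtracted intensity after each array was scaled by its 75th percentile. On this scale the lowest signal that the scanner software rated well above background was 3.98 to 4.61, depending on the array. A probe was tested when it was well above background on both clones' arrays in at least 1 condition, which held for 7 of the 10 genes and 8 of their 13 probes, and for 27287 probes in all. *CHFR* and *TIMP3* passed this filter only through treated arrays, so a higher signal after the drug was built into their selection. *MGMT*, *RASSF1*, *RASSF2*, *HLTF* and *NDRG4* were well above background on all 8 arrays, and no spot on any array was saturated. Adjusted p-values are from limma with Benjamini-Hochberg adjustment over all 27287 probes, and a call means an adjusted p-value below 0.05.

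The arrays of treated CONT1 and CONT2 came from another slide, scanned 230 days after the one that held the other 6. For the response of the control clones slide and treatment cannot be told apart. The difference in response between knockdown and control clones also uses these arrays, so the slide cannot be told apart there either. The response of the knockdown clones and the comparison of untreated clones lie within the first slide. The spike-in controls, RNA added in equal amounts, were lower on the second slide by 0.02 to 1.00 on the log2 scale before the arrays were scaled, most at intermediate brightness. *TET1* itself was lower in both untreated knockdown clones than in both control clones on each of its 3 probes. On the brightest of these it was at 9.70 and 9.75 in CONT1 and CONT2 and at 8.65 and 9.41 in TET1-KD1 and TET1-KD2, a difference of -0.69 (SE 0.30, limma adjusted p = 0.63). The next probe differed by -0.98 (SE 0.42, limma adjusted p = 0.63). The dimmest differed by a measured -2.14 (SE 0.34, limma adjusted p = 0.628), with both untreated knockdown values below background. Of 8 markers of colorectal epithelium, 7 were well above background on all arrays, and *VIL1* was so on 2.

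In the control clones 5-aza-dC was followed by a higher signal of 1 of the 7 tested genes (*CHFR*) and a lower signal of 2 (*MGMT* and *RASSF2*). Over all tested probes, 21.7% were called higher and 24.5% lower in this comparison. After treatment of the knockdown clones 1 of 7 genes (*CHFR*) was called higher and none lower, against 5.91% and 0.268% of all tested probes. *CHFR* had passed the filter only through treated arrays. Of the 2965 tested probes that passed in this way, 69.1% were called higher in the control and 42.7% in the knockdown clones. The median log2 difference of the 7 genes was 0.08 for the control response and 0.03 for the knockdown response, and that of all tested probes was -0.08 and -0.07. Between untreated knockdown and control clones 0 of the 7 genes were called, as were 0% of all tested probes. An unadjusted p-value below 0.05 was found there for 2053 probes (7.52%), *MGMT* among them, while 1 fit over all 8 arrays called 4 probes and the methods' t-test 1. A difference in response between knockdown and control clones was called for 0 of the 7 genes and for 5.58% of all tested probes. At an unadjusted p-value below 0.05 this difference was found for 24.7% of all tested probes and, among the genes' probes, for the dimmer probe of *RASSF2* alone, 2 of whose values were below background, and the methods' t-test called it for none of the 7 genes.

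**Figure D2:**
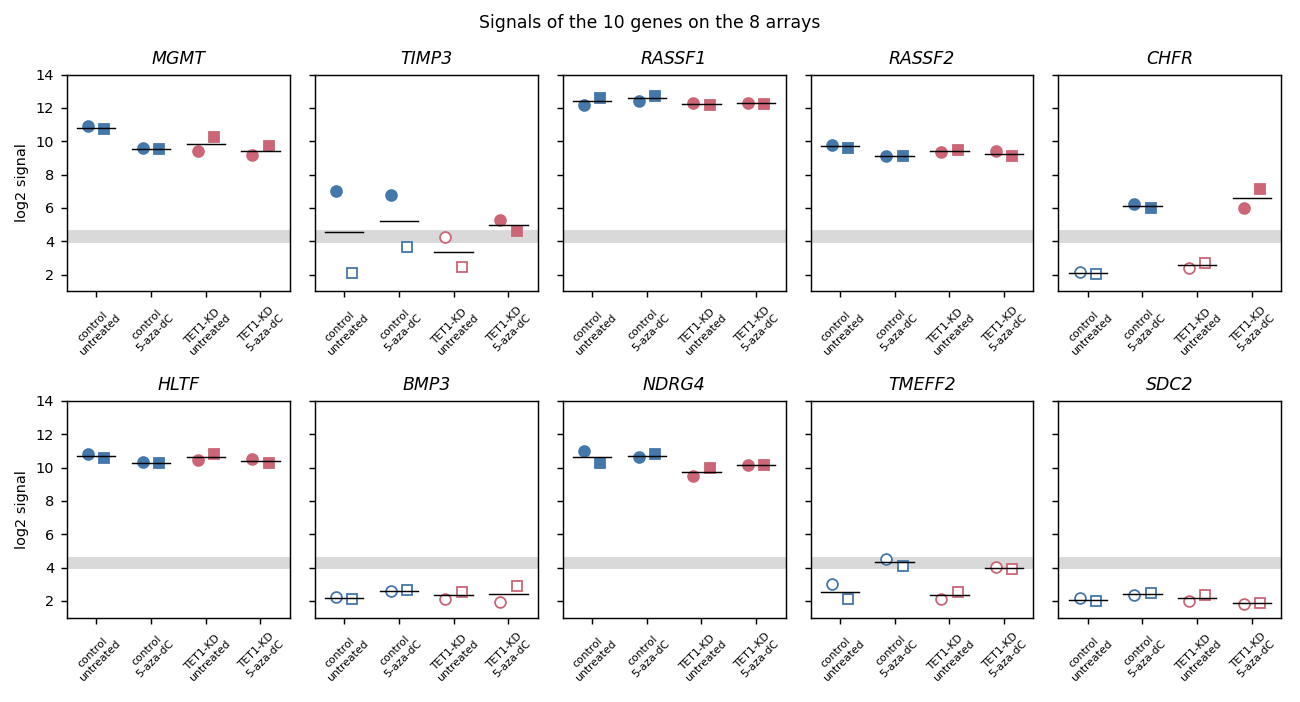
Log2 signal (y axis) of the representative probe of each gene on the 8 arrays, by condition (x axis). Circles are clones number 1 and squares clones number 2, filled where the spot was well above background and open where it was not; black lines are condition means, and the grey band spans the lowest signals well above background (3.98 to 4.61). *CHFR* is open in all untreated and filled in all treated clones, *TIMP3* is filled in untreated cells only in CONT1, and *BMP3*, *TMEFF2* and *SDC2* are open throughout.

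*CHFR* encodes a ubiquitin ligase of a mitotic checkpoint, which delays entry into mitosis when microtubules are disturbed. Its probe lies at chr12:133417712-133417771 (hg19, minus strand). Without the drug its signal was 2.18 (CONT1), 2.03 (CONT2), 2.42 (TET1-KD1) and 2.72 (TET1-KD2), and after 5-aza-dC it was 6.25, 5.97, 5.99 and 7.16. All 4 treated clones were thus above all 4 untreated ones, and the probe was well above background on every treated and no untreated array, a pattern shared by 4.21% of tested probes (1150). The probe passed the filter only through treated arrays, so this separation was in part built in. The software rated the signal as significantly above background, a looser criterion, in both untreated knockdown clones and in neither untreated control clone. The treated signal of the control clones was higher by at least 3.46-fold when the dim arrays are set to their lowest signal well above background (limma adjusted p = 0.00097). In the knockdown clones it was higher by at least 4.51-fold by the same bound (limma adjusted p = 0.0172), and this comparison lies within a single slide. The measured log2 differences, which run down below background, were 4.0 (SE 0.16) and 4.0 (SE 0.45).

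Since the untreated signal of *CHFR* was not well above background in any clone, the size of each clone's response has only a lower bound. The treated values of the knockdown clones, 5.99 and 7.16, overlapped those of the control clones, 5.97 and 6.25, which came from the second slide. A difference in response was not called (limma adjusted p = 0.998), which does not show that the clones responded alike. A difference between untreated clones was not called either (limma adjusted p = 0.63), at signals below background. The call in the knockdown clones was lost with normexp background correction (log2 difference 1.19, adjusted p = 0.0965), with an offset of 50 before the log (1.40, adjusted p = 0.0903), with the methods' t-test (adjusted p = 0.241) and without the untreated array of TET1-KD1 (3.86, adjusted p = 0.074) or of TET1-KD2 (4.15, adjusted p = 0.0652). The call in the control clones held with normexp (1.18), with the offset (1.13) and with the methods' t-test.

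The measured signal of *CHFR* ranged over 5.14 on the log2 scale across the 8 arrays and that of *TIMP3* over 4.94, both with their lower ends below background, where values have no order. The genes most like it, by the root mean square difference between mean-centered log2 profiles over the 8 arrays among 15634 named genes, were *MATK* (0.178), *MOV10L1* (0.197) and *NID1* (0.211). *MATK*, a tyrosine kinase of blood cells, was between 2.00 and 2.40 in the untreated clones and between 5.53 and 6.80 in the treated ones. *NID1*, a basement membrane protein, was between 2.18 and 2.64 and between 6.25 and 7.02. The 8 arrays share only 4 clones, and each of these genes was near background in all untreated clones.

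*MGMT* encodes the repair enzyme that removes alkyl groups from guanine. Its probe spans an exon junction between chr10:131506282 and 131557499 (hg19, plus strand). Without the drug its signal was 10.91 (CONT1), 10.72 (CONT2), 9.43 (TET1-KD1) and 10.25 (TET1-KD2), and after 5-aza-dC it was 9.59, 9.52, 9.16 and 9.72. Both untreated control clones stood above the 6 other arrays. With treatment of the control clones the signal fell by 1.26 on the log2 scale, or 2.39-fold (SE 0.14, limma adjusted p = 0.00666), with no overlap between treated and untreated arrays, as for 42.8% of all tested probes in this direction. The signal fell by 1.32 in CONT1 and fell by 1.20 in CONT2. The mean difference ranged from -1.38 to -1.16 over all alternative settings and left-out arrays, the scalings to the spike-in controls included. It was called under each alternative setting that kept all arrays. None of these settings separates the drug from the slide, since both treated control arrays came from the second slide. The knockdown clones differed by -0.40 (SE 0.38, limma adjusted p = 0.596), -0.26 in TET1-KD1 and -0.54 in TET1-KD2, and treated and untreated arrays overlapped.

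Untreated knockdown clones were 0.97 below untreated control clones in *MGMT* (SE 0.33, unadjusted p = 0.0381, limma adjusted p = 0.63), without overlap, as for 21.2% of tested probes in this direction. This comparison shares its control arrays with the response of the control clones. The 2 knockdown clones differed from each other by more than the control clones did, with an SD of 0.58 against 0.14. The difference in response was 0.86 (SE 0.45, 95% interval -0.22 to 1.93, limma adjusted p = 0.291).

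*HLTF* encodes a chromatin remodeling helicase that also acts as a ubiquitin ligase in the bypass of DNA damage. Its probe lies at chr3:148748391-148748450 (hg19, minus strand). Without the drug its signal was 10.79 (CONT1), 10.56 (CONT2), 10.48 (TET1-KD1) and 10.83 (TET1-KD2), and after 5-aza-dC it was 10.31, 10.29, 10.50 and 10.28. Both treated control arrays lay below both untreated ones, as for 42.8% of all tested probes in this direction, while TET1-KD1 hardly differed between its arrays. The log2 difference was -0.37 in the control clones (SE 0.14, limma adjusted p = 0.102) and -0.27 in the knockdown clones (SE 0.22, limma adjusted p = 0.547), and the difference in response had a 95% interval from -0.53 to 0.74. That of the control clones passed the test when the trend on probe GC content was removed (-0.81, adjusted p = 0.0157) and when the arrays were put on the spike-in signals by interpolation (-0.63, adjusted p = 0.0313).

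*RASSF1* and *RASSF2* encode proteins with a RAS association domain that act in growth restraint and cell death. The brighter *RASSF1* probe (chr3:50367320-50367379, hg19, minus strand) gave 12.20 (CONT1), 12.62 (CONT2), 12.31 (TET1-KD1) and 12.17 (TET1-KD2) without the drug and 12.42, 12.71, 12.30 and 12.24 with it. The 8 values lay within 0.54 of each other, and the difference was 0.16 in the control clones (SE 0.22, limma adjusted p = 0.583) and 0.03 in the knockdown clones (SE 0.18, limma adjusted p = 0.946). With the scaling used here the 95% intervals ran from -0.44 to 0.76 and from -0.46 to 0.52, within a 2-fold change either way at this probe. The interval of the control clones holds for this scaling only and takes in the slide as well as the drug. The sign of the difference in the control clones turned with the scaling to the spike-in controls (-0.04 by a straight line, -0.40 by interpolation). A second *RASSF1* probe (chr3:50375186-50375245, hg19), designed on a separate transcript, was between 1.94 and 3.76 and never well above background. Which transcripts of *RASSF1* the brighter probe detects was not analysed here.

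The brighter *RASSF2* probe (chr20:4760783-4760842, hg19, minus strand) gave 9.80 (CONT1), 9.59 (CONT2), 9.38 (TET1-KD1) and 9.50 (TET1-KD2) without the drug and 9.12, 9.11, 9.43 and 9.09 with it. With treatment of the control clones it fell by 0.58 on the log2 scale, or 1.49-fold (SE 0.14, limma adjusted p = 0.0352). The knockdown clones differed by -0.18 (SE 0.21, limma adjusted p = 0.679), 0.05 in TET1-KD1 and -0.41 in TET1-KD2. The call in the control clones was lost with no filter on dim probes (adjusted p = 0.0749), with the methods' t-test (adjusted p = 0.0867) and without any single array (adjusted p from 0.0897 to 0.165), and the change was under 2-fold. The size also depended on the processing: the difference was -1.43 (adjusted p = 0.025) as the mean of both tested probes, the second of which follows, and -0.95 (adjusted p = 0.0101) with the GC trend removed.

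A second *RASSF2* probe, which spans chr20:4773229-4773654 (hg19), was dimmer. It gave 5.74 (CONT1), 5.41 (CONT2), 5.44 (TET1-KD1) and 5.64 (TET1-KD2) without the drug and 2.59, 4.0, 5.65 and 5.26 with it. Both treated control arrays were not well above background, and both were below the 6 other arrays. Both treated control arrays below both untreated ones were found for 42.8% of all tested probes. The signal was lower in the treated control clones by at least 2.11-fold (measured log2 difference -2.28, SE 0.53, limma adjusted p = 0.0331), and the difference in the knockdown clones was -0.09 (SE 0.23, limma adjusted p = 0.862). The difference in response was not called (limma adjusted p = 0.101), and its size is not given because both treated control values were below background. The 2 arrays that stood apart are those of the second slide, and the part of the slide in this difference cannot be told apart. The spike-in differences given above are from before the arrays were scaled, so they are not on the scale of these values.

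**Figure D3:**
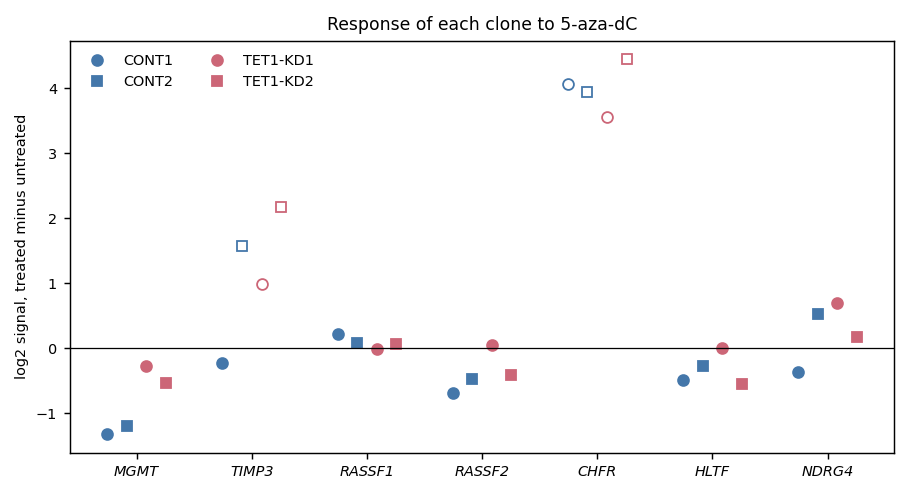
Treated minus untreated log2 signal (y axis) of each clone for the representative probe of the 7 tested genes (x axis). Filled symbols mark clones whose spot was well above background on both arrays, and open symbols those where it was not on at least 1, so that the measured difference runs below background. All symbols are open for *CHFR*, for *TIMP3* only CONT1 is filled (-0.23), and both control clones are below -1 for *MGMT*.

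*TIMP3* encodes an inhibitor of metalloproteinases that stays bound to the extracellular matrix. Its probe (chr22:33258540-33258599, hg19, plus strand) gave 7.03 (CONT1), 2.09 (CONT2), 4.28 (TET1-KD1) and 2.46 (TET1-KD2) without the drug and 6.80, 3.66, 5.27 and 4.64 with it. CONT1 was well above background with and without the drug, CONT2 was not on either array, and the knockdown clones were so only after the drug. In CONT1, the clone measured on both arrays, the treated signal differed from the untreated one by -0.23. No difference was called in the control clones (limma adjusted p = 0.808), and the measured one turned with the array left out, from 3.14 without the untreated array of CONT1 to -1.79 without that of CONT2. The treated knockdown clones were higher than the untreated ones by at least 1.42-fold by the background bound (limma adjusted p = 0.287). Treated and untreated arrays did not overlap, as for 24.2% of all tested probes in this direction. *TIMP3* had passed the filter only through the treated knockdown arrays, so a rise there was built into its selection. The share over all tested probes is therefore not a like comparison. A difference in response was not called (limma adjusted p = 0.853), and its size is not given because CONT2 was below background on both arrays.

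*NDRG4* encodes a cytoplasmic protein of the NDRG family that is best known from heart and nervous tissue. Its probe (chr16:58547109-58547168, hg19, plus strand) gave 10.98 (CONT1), 10.26 (CONT2), 9.49 (TET1-KD1) and 10.00 (TET1-KD2) without the drug and 10.61, 10.79, 10.18 and 10.18 with it. The drug difference was -0.37 in CONT1 and 0.53 in CONT2, opposite in sign, and their mean was 0.08 (SE 0.29, limma adjusted p = 0.838). Across the knockdown clones it was 0.44 (SE 0.25, limma adjusted p = 0.393), with both treated above both untreated arrays, as for 24.2% of all tested probes in this direction. Untreated knockdown clones were 0.88 below untreated control clones, without overlap, as for 21.2% of tested probes in this direction (SE 0.34, limma adjusted p = 0.63).

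*TMEFF2* encodes a transmembrane protein with epidermal growth factor-like and follistatin-like domains. Its probe (chr2:192814946-192815005, hg19, minus strand) gave 3.02 (CONT1), 2.10 (CONT2), 2.14 (TET1-KD1) and 2.52 (TET1-KD2) without the drug and 4.52, 4.11, 4.02 and 3.93 with it. The measured values of the 4 treated clones were above those of the 4 untreated ones, but no array was well above background, so no size is given. In the knockdown clones alone, 24.2% of tested probes, which do not include this one, had both treated above both untreated arrays. The share with this order over all arrays was not counted. By the looser criterion the signal was significantly above background on all 4 treated arrays and, of the untreated ones, on that of CONT1 alone. When no filter on dim probes was applied, the limma adjusted p-value was 0.0568 for the control response and 0.0498 for the knockdown response, over 50543 probes.

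*BMP3*, an atypical member of the bone morphogenetic proteins, had 2 probes (chr4:81978564-81978623 and chr4:81974640-81974699, hg19). They gave between 1.95 and 2.92 and between 1.76 and 2.40 over the 8 arrays. *SDC2*, a heparan sulfate proteoglycan of the cell surface, had 1 probe (chr8:97623978-97624037, hg19), which gave between 1.85 and 2.46. None of these probes was well above background on any array, treated or not, so no change of either gene was detectable. Only the brighter *BMP3* probe was significantly above background by the looser criterion, on the treated array of TET1-KD2 alone (2.92).

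Other genes reported as hypermethylated in colorectal cancer gave a setting for these values. Of 45 such genes, 44 were on the array and 24 were tested. This list and that of the relatives below were chosen with earlier results of these data known. Their counts are therefore not an independent comparison. After treatment of the control clones 13 of the 24 were called higher and 1 lower, and their median log2 difference was 2.72, against 0.08 for the 7 genes above and -0.08 for all tested probes. For the knockdown clones 8 were called higher and none lower, with a median of 1.77. Over all tested probes, 21.7% were called higher and 24.5% lower in the control clones, and 5.91% and 0.268% in the knockdown clones. With groups below background set to their bound, which applied to 11 of the 24 for the control response and 8 for the knockdown response, these medians were 1.97 and 0.58. Of the 24, 10 had passed the filter only through treated arrays, and all 10 were called higher in the control clones, as were 69.1% of the 2965 tested probes that passed in this way. Among the 14 others, 3 were called higher and 1 lower there, and among the 5 of the 7 genes above that passed through untreated arrays 0 were called higher and 2 lower. Of the 24322 tested probes that passed through untreated arrays, 15.9% were called higher and 27.1% lower in the control clones. In the knockdown clones 6 of the 10 and 2 of the 14 were called higher. The corresponding shares of tested probes were 42.7% and 1.43%.

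The genes named here from that list are those with the highest and lowest measured differences. Where a group is below background the measured difference has no order, so that no rank among the dim genes is given. *VIM*, which encodes vimentin, an intermediate filament protein of mesenchymal cells, was at 8.0 and 8.80 in untreated and at 14.59 and 15.54 in treated control clones (difference 6.66, SE 0.46, limma adjusted p = 0.00252). In TET1-KD1 and TET1-KD2 it went from 7.92 and 7.23 to 12.79 and 13.37 (5.50, SE 0.35, limma adjusted p = 0.00493). *BCAT1*, a branched-chain amino acid transaminase, was higher in treated than in untreated control clones by at least 11.1-fold (limma adjusted p = 0.0059) and *FBN2*, a fibrillin of elastic microfibrils, by at least 9.68-fold (limma adjusted p = 0.000864). With lower measured values stood *NELL1* (-1.16, limma adjusted p = 0.229) and *ESR1* (-1.63, limma adjusted p = 0.191), both below background on the treated array of CONT2, and *CXCL12*, which was lower by at least 1.1-fold (limma adjusted p = 0.0402).

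Relatives of the 10 genes, such as other RASSF, TIMP, NDRG, syndecan and BMP family members and other repair enzymes of alkylated DNA, were mostly detected without the drug. Of 28 relatives, 27 were on the array and 22 were tested, 21 of them through untreated arrays, and 4 were called higher and 2 lower in the control clones (median -0.27). For the knockdown clones 1 was called higher and none lower (median 0.27). The shares over all tested probes were 21.7% higher and 24.5% lower in the control clones, and 5.91% and 0.268% in the knockdown clones. The relative that passed the filter only through treated arrays was *GDF10*. *GDF10*, the closest relative of *BMP3*, was called higher in both, by at least 11.4-fold in the control clones (limma adjusted p = 0.00108) and at least 4.5-fold in the knockdown clones (limma adjusted p = 0.02), whereas *BMP3* stayed at background. In the control clones *BMP7* rose by 1.08 (limma adjusted p = 0.0215) and *NDRG1* by 1.07 (limma adjusted p = 0.0224) on the log2 scale. There *SHPRH*, the paralog of *HLTF*, fell by 1.00 (SE 0.13, limma adjusted p = 0.00958) and *RASSF7* fell by 0.53 (SE 0.12, limma adjusted p = 0.0319), while *RASSF3* differed by -0.86 (limma adjusted p = 0.0881). None of the 24 other hypermethylated genes and none of the 22 relatives was called in the comparison of untreated clones or for a difference in response.

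**Figure D4:**
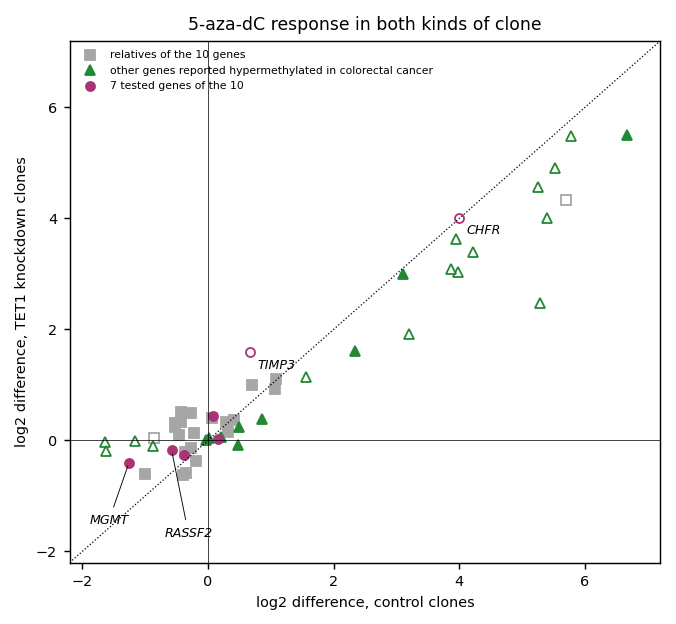
Log2 difference between treated and untreated arrays in the control clones (x axis) and in the *TET1* knockdown clones (y axis) for the tested genes; the dotted line marks equal differences, and open symbols mark genes not well above background on all 8 arrays, whose measured differences can run below background. Of the 7 genes described here (circles) only *CHFR* (measured 4.0 and 4.0, open) lies among the high values, where 13 genes of the list of other hypermethylated genes (triangles) were called in the control clones; most relatives (squares) lie near 0.

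The summed signals of marker lists for cell types other than epithelium were higher on treated arrays. The log2 of the summed signal of 5 leukocyte markers was 8.84 to 9.74 in the untreated and 10.57 to 11.31 in the treated clones, with 3 of the 5 well above background on all arrays. For 3 endothelial markers it was 6.56 to 6.85 and 7.59 to 8.16, with 0 of the 3 well above background on all arrays. For 6 fibroblast markers it was 8.43 to 8.83 and 9.34 to 9.82, with 1 well above background on all arrays and 3, *COL1A2*, *COL3A1* and *LUM*, on none. After treatment of the control clones 4 of 4 tested leukocyte, 2 of 3 endothelial and 3 of 3 fibroblast markers were called higher and none lower, against 1, 1 and 0 for the knockdown clones. Over all tested probes, 21.7% were called higher in the control and 5.91% in the knockdown clones. Of these markers, 1 leukocyte, 1 endothelial and 2 fibroblast ones had passed the filter only through treated arrays. All of those were called higher in the control clones, as were 69.1% of tested probes that passed in this way. *CDH5*, a junction protein of endothelium, was measured lower in both, by -2.10 in the control clones (limma adjusted p = 0.0566) and -0.28 in the knockdown clones (limma adjusted p = 0.494). Its value on the treated array of CONT2 (3.23) was below background, so the difference in the control clones runs below background. The cultures were clones of a cell line, and the part of these markers in the results above was not tested. In such bulk RNA, fewer cells that express a gene and less of its RNA per cell cannot be told apart.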

How the data were processed

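Gene expression was measured on 8 one-color Agilent arrays with 60-base probes. The authors deposited the spot intensity values of each array as Feature Extraction 10.7.3.1 wrote them, background-subtracted and not normalized between arrays, with quality flags coded 0 or 1 (a score without a unit). Per the paper, the arrays were analyzed in GeneSpring GX and probes were compared by t tests with Benjamini-Hochberg correction. The normalization is not given in the sources used here. The deposited series table held the same intensities to 3 digits (ratio to the scanner values 0.995 to 1.005), with no centring, and was used as an alternative. Gene names and probe positions (hg19) are those of the files.

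Each array's processed intensity was scaled so that its 75th percentile equaled the geometric mean over the arrays. Values below 1 were set to 1, and log2 was taken. Spots flagged as outliers were left out and repeated probes averaged, which left 50543 of 50599 probes, of which 27287 were tested (at least 0.5 of a probe's spots well above background, for both clones of a condition, in at least 1 condition). The tests were run with limma 3.58.1 in R 4.3.3, on 4 arrays per comparison and all 8 for the difference in response. The 75th percentile ran from 395.5 to 623.7 intensity units and 29490 to 34276 spots were well above background per array, and the number of arrays limits the precision. Intervals are 95% and come from the moderated spread.

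The members and the gene lists were chosen with earlier results of these data known. For each gene the brightest tested probe by mean signal was used. From each context list the 3 genes with the highest and the 3 with the lowest difference in the control clones, tested and of one sign in both clones, are named, together with the 3 genes most like the gene of widest range. The treated and untreated array of a clone share its number in the titles. Their deviations from the condition means correlated at 0.198 (control) and 0.476 (knockdown) over the 27287 tested probes, and the clone as a block was an alternative. The functions were tested on simulated data. Promoter windows are from RefSeq (GRCh38.p14), matched by symbol. Plots were drawn with matplotlib 3.10.9. The p-values measure the spread between clones of a kind.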

Additional observations from a re-analysis of the deposited data

How the results depend on the processing

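With 2 clones per condition the spread rests on few values, and signal over background limits the dim genes: *BMP3*, *SDC2* and *TMEFF2* did not pass the filter, and the values of *CHFR* and *TIMP3* below rest in part on signals under background. In the control clones 1 gene was called higher under all alternatives except the restriction to probes above background on all arrays (0), which removes *CHFR* by construction. There 2 genes were called lower as reported, 1 with no filter on dim probes, the methods' t-test, a minimum change of 2-fold or any array left out (1 to 1), and 3 with the GC trend removed (with or without the block) and with interpolated spike-ins. In the knockdown clones the number of genes called higher was 0 with normexp, with an offset of 50, with only probes above background on all arrays and with the methods' t-test, 2 with no filter (*CHFR* and *TMEFF2*), and 0 to 1 with each array left out. The cause was not tested. No gene was called in the other comparisons under any alternative.

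A replicate block for the clone gave 1 higher and 2 lower in the control and 1 higher in the knockdown clones, and changed no call. The adjusted p-value of *MGMT* in the control clones was then 0.0154 and that of *RASSF2* 0.049.

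Signs turned only for differences that were not called. In the control clones the difference of *NDRG4* was -0.028 with the GC trend removed (with or without the replicate block), -0.0119 with a spike-in line and -0.26 with interpolated spike-ins, and that of *RASSF1* was -0.0388 and -0.401 with the spike-in line and interpolation. In the knockdown clones *RASSF1* was at -0.22 with the GC trend removed, with or without the block. The difference in response of *RASSF1* was 0.0426 with quantile normalization, 0.0888 with the spike-in line and 0.42 with interpolation, and that of *CHFR* was -0.32 with quantile normalization and -0.19 with the spike-in line. With each array left out in turn, the control response ranged from -1.79 to 3.14 for *TIMP3*, from -0.0545 to 0.37 for *RASSF1* and from -0.28 to 0.44 for *NDRG4*. The knockdown response ranged from -0.81 to 0.0119 for *MGMT* and from -0.0395 to 0.0962 for *RASSF1*. The difference between untreated clones ranged from -3.66 to 1.28 for *TIMP3*, from -0.38 to 0.0365 for *RASSF1* and from -0.19 to 0.15 for *HLTF*. The difference in response ranged from -1.56 to 3.38 for *TIMP3*, from -0.34 to 0.0828 for *RASSF1*, from -0.58 to 0.59 for *CHFR* and from -0.064 to 0.28 for *HLTF*. A condition left with 1 array was assumed to vary like the others. Over all tested probes, the knockdown clones had 1614 higher and 73 lower calls as reported, 763 and 67 with normexp, 766 and 58 with the offset, 65 and 0 with only probes above background on all arrays, 2430 and 790 in 1 fit over all 8 arrays, 2299 and 226 with the block, 2321 and 1571 with the block and the GC trend removed, 866 and 18 without untreated TET1-KD1, 982 and 23 without untreated TET1-KD2, 1751 and 48 without treated TET1-KD1, 1143 and 5 without treated TET1-KD2, and 0 with the methods' t-test. The control clones had 5909 and 6690, 6772 and 5782 with normexp, 4815 and 8196 with the GC trend removed, 4629 and 9647 with interpolated spike-ins, 3072 and 1919 without untreated CONT1, 2847 and 1985 without untreated CONT2, and 2152 and 2011 with the methods' t-test. A difference in response was called higher for 1097 and lower for 425 probes as reported, 433 and 396 with normexp, 462 and 323 with the GC trend removed, 125 and 108 with the block and the GC trend removed, 2105 and 344 with interpolated spike-ins, and 487 and 228 with no filter. With arrays left out it was 33 and 14 (untreated CONT1), 144 and 47 (untreated CONT2), 253 and 101 (untreated TET1-KD1), 575 and 240 (untreated TET1-KD2), 1037 and 208 (treated CONT1), 650 and 227 (treated CONT2), 331 and 116 (treated TET1-KD1) and 354 and 220 (treated TET1-KD2).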
